A study of Mus musculus with 10 samples.

Results

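The genes described are those of the cytosolic ribosomal proteins, the protein parts of the ribosomes that translate most cellular mRNA. They were taken by symbol, as Rpl, Rps, Rplp or Rpsa names with a number and, in some, a short ending for a paralogue, and Mrpl and Mrps genes of the mitochondrial ribosome were not taken. This gave 66 genes of the 22180 that could be named on the arrays, of which 42 have large subunit symbols and 24 small subunit symbols. A gene was named only from probe sets with 1 gene symbol, and where a gene had several, the one with the highest mean was used. Another 13 genes with matching symbols were present only on probe sets that name several genes, and 8 more had no entry in the array annotation, so these were not analysed here. The reference gene table lists Rpl6l as a pseudogene and Rps4l as a transcribed pseudogene, and both were kept. No filter on low values was applied, so all 66 members entered every test.

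Cortices of CD1 mice at embryonic days 12 to 13 gave the RNA, which was hybridised to Affymetrix Mouse Gene 2.0 ST arrays. The 4ET-IP group (replicates 1, 2 and 3) held RNA recovered with an antibody against 4E-T, the IgG-IP group (replicates 2, 3 and 4) held RNA recovered with control immunoglobulin, and the input group (replicates 1 to 4) held total RNA. All groups shared strain, age and tissue, and the labels name no transgene, mutation or drug. The series text calls the samples biological replicates and speaks of 3 of each kind, whereas 4 inputs are labelled. The number of embryos or litters behind each sample was not given in the sources used here, so the errors measure the spread between these arrays.

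4E-T, the product of Eif4enif1, binds the cap-binding protein eIF4E and is known as a translational repressor found in processing bodies, and the title of the study concerns its complex with eIF4E1 in cortical precursors. Ribosomal protein mRNAs are short, abundant and stable, and in vertebrates they usually begin with a terminal oligopyrimidine (TOP) tract, a C followed by a run of C and U. Through this tract the mTOR pathway and the RNA-binding protein LARP1 adjust their translation together. A precipitate is therefore read here in both ways, against IgG-IP, which measures what adheres without the specific antibody, and against input, which measures what was present in the tissue.

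The start regions below are shown because the TOP tract lies at the transcription start and because these genes span the range of the array results. Each window comes from the RefSeq promoter table (GRCm38.p6) and runs from 40 bases before the annotated start to 20 bases from it, 5′ to 3′ on the gene's own strand. Capitals mark runs of 5 or more C or T that begin with C. The first sequences, of Rpl28, Rpl38, Rps18, Rps6 and Rps27, have at the annotated start base a C followed by at least 4 C or T.
Rpl28 (chr7:4792925-4792984, plus strand): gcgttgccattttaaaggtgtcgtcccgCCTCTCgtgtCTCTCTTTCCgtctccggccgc
Rpl38 (chr11:114668540-114668599, plus strand): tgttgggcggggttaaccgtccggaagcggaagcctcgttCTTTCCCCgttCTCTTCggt
Rps18 (chr17:33955646-33955705, minus strand): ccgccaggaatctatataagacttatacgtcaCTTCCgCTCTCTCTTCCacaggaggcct
Rps6 (chr4:86857348-86857407, minus strand): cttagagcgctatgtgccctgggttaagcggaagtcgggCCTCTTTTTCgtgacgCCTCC
Rps27 (chr3:90213629-90213688, minus strand): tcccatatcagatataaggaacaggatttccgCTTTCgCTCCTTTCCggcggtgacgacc
The next sequences have no such tract at the annotated start base, although a run may lie beside it or, in Rpl27a, across it.
Rpl27a (chr7:109519155-109519214, plus strand): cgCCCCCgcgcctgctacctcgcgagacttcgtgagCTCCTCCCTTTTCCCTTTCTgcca
Rplp0 (chr5:115559427-115559486, plus strand): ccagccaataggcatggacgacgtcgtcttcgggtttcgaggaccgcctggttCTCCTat
Rps26 (chr10:128626487-128626546, minus strand): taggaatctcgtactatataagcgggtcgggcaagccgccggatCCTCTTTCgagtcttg
Rps3 (chr7:99483690-99483749, minus strand): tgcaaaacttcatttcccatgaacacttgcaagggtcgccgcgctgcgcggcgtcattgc
Rpl6 (chr5:121204461-121204520, plus strand): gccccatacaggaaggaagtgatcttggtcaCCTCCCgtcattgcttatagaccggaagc
Rpl41 (chr10:128549149-128549208, minus strand): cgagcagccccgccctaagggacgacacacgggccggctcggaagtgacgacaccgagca
Of the 66 members, 51 had an entry in the promoter table. The tract lay at the annotated start in 11 of these 51 (21.6%), against 813 of 27025 genes in the table (3.01%). Allowing a start within 5 bases on either side gave 22 members (43.1%), against 5718 of all genes (21.2%). The motif was read on the gene's own strand, since the tract belongs to the transcript, and only that strand was read, and a match describes these letters in 1 annotated start window, not a tested TOP mRNA. 

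Both precipitates held less of the ribosomal protein mRNAs than input, relative to the other genes. Between the precipitates, members were called about as often as genes at large. Of the 66 members, 41 were lower in 4ET-IP than in input (62.1%) and 0 were higher, where 8.86% of all 22180 genes were lower and 10.4% higher (19.3% in either direction). In IgG-IP over input, 41 were lower and 1 was higher, where 10.5% of all genes were lower and 6.14% higher (16.6% in either direction). In 4ET-IP over IgG-IP, 3 members were higher (4.55%) and 4 lower (6.06%). Of all genes, 7.57% were higher there and 2.92% lower (10.5% in either direction). Calls are at a Benjamini-Hochberg adjusted p under 0.05 in limma, with 3 arrays in each precipitate group and 4 in the input group. Differences are of RMA log2 values and errors are standard errors of the fit. At an unadjusted p under 0.05 in limma, 0 members were higher and 47 lower in 4ET-IP over input (16.1% and 12.9% of all genes), 3 were higher and 48 lower in IgG-IP over input (12.4% and 15.7%), and 8 were higher and 9 lower in 4ET-IP over IgG-IP (15.7% and 8.12%). Array values are relative within an array, and in bulk tissue RNA a change of cell makeup and a change of RNA per cell cannot be told apart.

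The arrays fall on a pair of scales. Over all probe sets, 4ET-IP 1 had a median of 3.52 and input 1 a median of 3.54, while the medians of the others lay between 4.33 and 4.54. The fit therefore holds a term for the scale as well as for the group, and calls of named members that were lost without that term are given as such. The median of the 66 members lay above that of the other genes by 4.11, 3.45 and 3.49 on the 4ET-IP arrays, by 3.82, 3.53 and 3.85 on the IgG-IP arrays, and by 5.95, 5.52, 5.56 and 5.81 on the input arrays. Every precipitate array thus had a smaller margin than every input array, and the precipitate groups overlapped. The tissue label was checked on 6 measured dorsal forebrain precursor markers, whose per-array median lay between 8.88 and 9.38 in 4ET-IP, 8.0 and 8.19 in IgG-IP, and 7.70 and 7.93 in input. The 6 measured erythroid markers had medians between 5.88 and 7.15 in 4ET-IP, 5.39 and 6.79 in IgG-IP, and 5.72 and 7.06 in input. The endothelial, microglial and meningeal markers, 6 of each, had overlapping medians too, all at 5.33 or below, and the part of any cell type in the results was not tested. Eif4enif1 itself was higher in 4ET-IP than in input by 0.71 ± 0.14 (limma adjusted p = 0.00337), and its difference from IgG-IP was 0.48 ± 0.15 (adjusted p = 0.0737).

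The 6 lowest differences in 4ET-IP over input belonged to Rpl3, Rplp0, Rps27, Rpl6l, Rpl27a and Rps7, and the 6 lowest in IgG-IP over input to Rpl3, Rplp0, Rps7, Rps27, Rpl27a and Rpl9. Rpl3 had RMA log2 values of 7.80, 7.59 and 7.14 on the 4ET-IP arrays, 7.60, 7.42 and 7.53 on the IgG-IP arrays and 10.21, 10.32, 10.32 and 10.62 on the input arrays. Rpl3, a core protein near the peptidyl transferase centre, was thus lower on all 6 precipitate arrays than on any input array. It was 7.28-fold lower in 4ET-IP than in input (-2.86 ± 0.17 log2, limma adjusted p = 1.27e-05), and the difference of IgG-IP from input was -2.83 ± 0.18 (adjusted p = 8.14e-06). These values belong to the brightest of 3 Rpl3 probe sets. The other probe sets had -1.64 and 0.14 in 4ET-IP over input and 0.29 and 0.52 in IgG-IP over input, and the mean of all 3 gave -1.45 (limma adjusted p = 0.00012) and -0.67 (adjusted p = 0.0125) in these comparisons. Rplp0 had RMA log2 values of 8.03, 7.86 and 7.63 on the 4ET-IP arrays, 8.09, 7.78 and 7.93 on the IgG-IP arrays and 9.95, 10.48, 10.64 and 10.80 on the input arrays. Rplp0, the base of the P stalk that recruits elongation factors, was lower than input by 6.09-fold in 4ET-IP and by 6.02-fold in IgG-IP. The log2 differences were -2.61 ± 0.19 (limma adjusted p = 2.56e-05) and -2.59 ± 0.19 (adjusted p = 2.46e-05), and no precipitate array reached an input array. These values belong to the brighter of 2 Rplp0 probe sets, and the other had -1.06 in 4ET-IP and -0.54 in IgG-IP over input. The mean of both gave -1.84 in 4ET-IP over input (limma adjusted p = 4.98e-05) and -1.57 in IgG-IP over input (adjusted p = 9.53e-05).

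Rps27, whose protein carries a zinc finger on the small subunit, was called lower in both precipitates. Rps27 had RMA log2 values of 4.31, 5.15 and 4.92 on the 4ET-IP arrays, 4.52, 3.90 and 5.37 on the IgG-IP arrays and 6.65, 6.56, 6.97 and 7.01 on the input arrays. Its difference from input was -1.97 ± 0.28 in 4ET-IP (limma adjusted p = 0.000529) and -2.31 ± 0.29 in IgG-IP (adjusted p = 0.000321). Rpl27a had RMA log2 values of 5.32, 5.57 and 5.42 on the 4ET-IP arrays, 5.69, 5.56 and 5.51 on the IgG-IP arrays and 7.70, 7.14, 7.29 and 7.23 on the input arrays. Rpl27a, a large subunit protein, differed from input by -1.92 ± 0.15 in 4ET-IP (limma adjusted p = 3.42e-05) and by -1.71 ± 0.15 in IgG-IP (adjusted p = 5.33e-05). In both genes the precipitate arrays lay below all input arrays. Rps7 had RMA log2 values of 6.59, 6.96 and 6.85 on the 4ET-IP arrays, 6.84, 6.41 and 5.19 on the IgG-IP arrays and 8.29, 8.47, 8.57 and 8.71 on the input arrays. Rps7, a small subunit protein, had a lower value on IgG-IP 4 than on the other precipitate arrays, and its IgG-IP difference of -2.44 ± 0.30 (limma adjusted p = 0.000309) stood beside -1.69 ± 0.30 in 4ET-IP (adjusted p = 0.00184). The pseudogene Rpl6l had differences of -1.93 ± 0.20 in 4ET-IP and -1.52 ± 0.21 in IgG-IP against input. Rpl9 had RMA log2 values of 7.28, 6.76 and 7.02 on the 4ET-IP arrays, 6.72, 7.14 and 7.38 on the IgG-IP arrays and 8.08, 9.0, 8.33 and 8.99 on the input arrays. Rpl9, a large subunit protein, was lower than input on every precipitate array, with -1.57 ± 0.25 in 4ET-IP (limma adjusted p = 0.000942) and -1.57 ± 0.25 in IgG-IP (adjusted p = 0.00142). The mean of its 2 probe sets gave -0.81 in IgG-IP over input (adjusted p = 0.0104).

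Among brighter members, Rps4x and Rpl10a showed the same order with all precipitate arrays below all inputs. Rps4x had RMA log2 values of 10.18, 9.56 and 9.43 on the 4ET-IP arrays, 9.83, 9.77 and 9.90 on the IgG-IP arrays and 11.35, 11.17, 10.86 and 11.20 on the input arrays. Rps4x, the X-linked small subunit gene, differed from input by -1.46 ± 0.14 in 4ET-IP (limma adjusted p = 7.97e-05) and by -1.19 ± 0.15 in IgG-IP (adjusted p = 0.000274). Rpl10a had RMA log2 values of 10.54, 10.12 and 9.80 on the 4ET-IP arrays, 9.95, 9.83 and 10.03 on the IgG-IP arrays and 11.38, 11.30, 11.34 and 11.38 on the input arrays. Rpl10a, a protein of the large subunit's L1 stalk, differed by -1.22 ± 0.15 in 4ET-IP (limma adjusted p = 0.000214) and by -1.34 ± 0.15 in IgG-IP (adjusted p = 0.000175). Rpsa had RMA log2 values of 10.44, 10.40 and 10.38 on the 4ET-IP arrays, 10.69, 10.74 and 10.88 on the IgG-IP arrays and 10.85, 11.70, 11.58 and 11.65 on the input arrays. Rpsa, also known as the laminin receptor precursor, differed by -1.01 ± 0.16 in 4ET-IP (limma adjusted p = 0.00111) and by -0.78 ± 0.17 in IgG-IP (adjusted p = 0.00767), with input 1 below the other inputs but above all precipitate arrays except IgG-IP 4. Its IgG-IP call was lost without the scale term (adjusted p = 0.129).

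**Figure D1:**
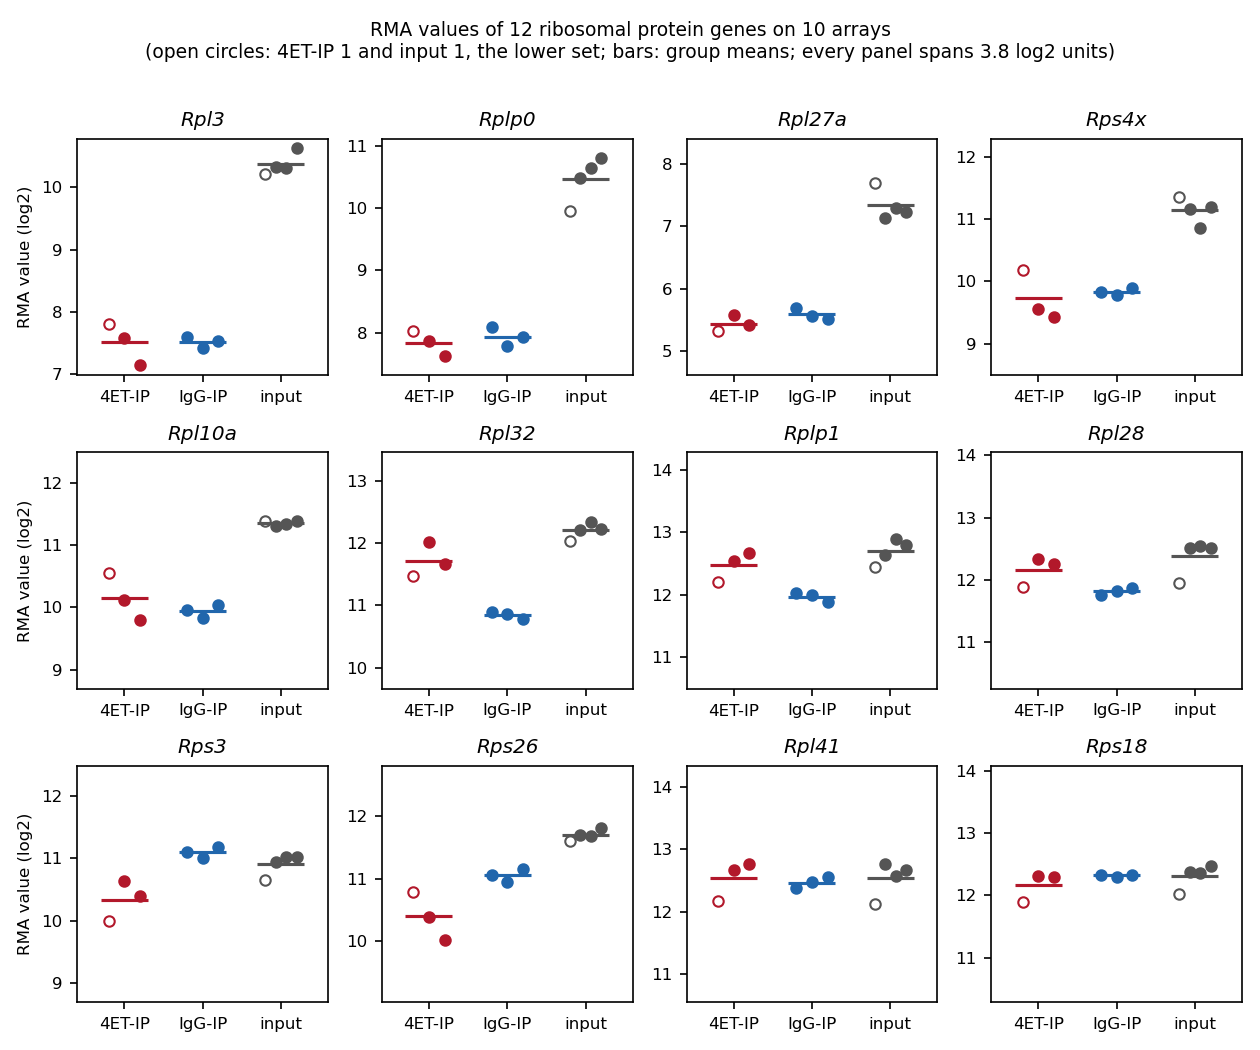
RMA log2 values (y axis) of 12 ribosomal protein genes, 1 panel a gene and 1 point an array, with 4ET-IP left, IgG-IP in the middle and input right. Bars are group means, open circles are 4ET-IP 1 and input 1, and each panel spans 3.8 log2 units. Rpl3 lies between 7.14 and 7.80 in 4ET-IP and at 10.21 or above in input, while Rpl41 overlaps between the groups.

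Over all members, the median log2 difference was -0.61 in 4ET-IP over input (62 of 66 negative), where the median of all genes was 0.04. In IgG-IP over input the median was -0.67, where that of all genes was 0.03. The quartiles of the members lay between -1.0 and -0.34 in 4ET-IP over input and between -0.99 and -0.38 in IgG-IP over input. Values without overlap between groups were found in 38 members lower in 4ET-IP than in input (8.44% of all genes), with 0 members higher (6.45% of all genes), and in 37 members lower in IgG-IP than in input (8.23% of all genes), with 3 members higher (14.1% of all genes). Since both comparisons share the input arrays, their likeness is not given as a result. On the lower scale alone, 4ET-IP 1 minus input 1 had a median of -0.46 over the members, with 59 negative, 5 positive and 2 at exactly 0, and a median of 0.00 over all genes. In the other 8 arrays the medians were -0.69 in 4ET-IP over input and -0.69 in IgG-IP over input, with 36 and 42 members called lower, where 7.2% and 9.97% of all genes were called lower. Without the scale term, 25 members were called lower in 4ET-IP over input (3.58% of all genes) and 20 in IgG-IP over input (3.99% of all genes).

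**Figure D2:**
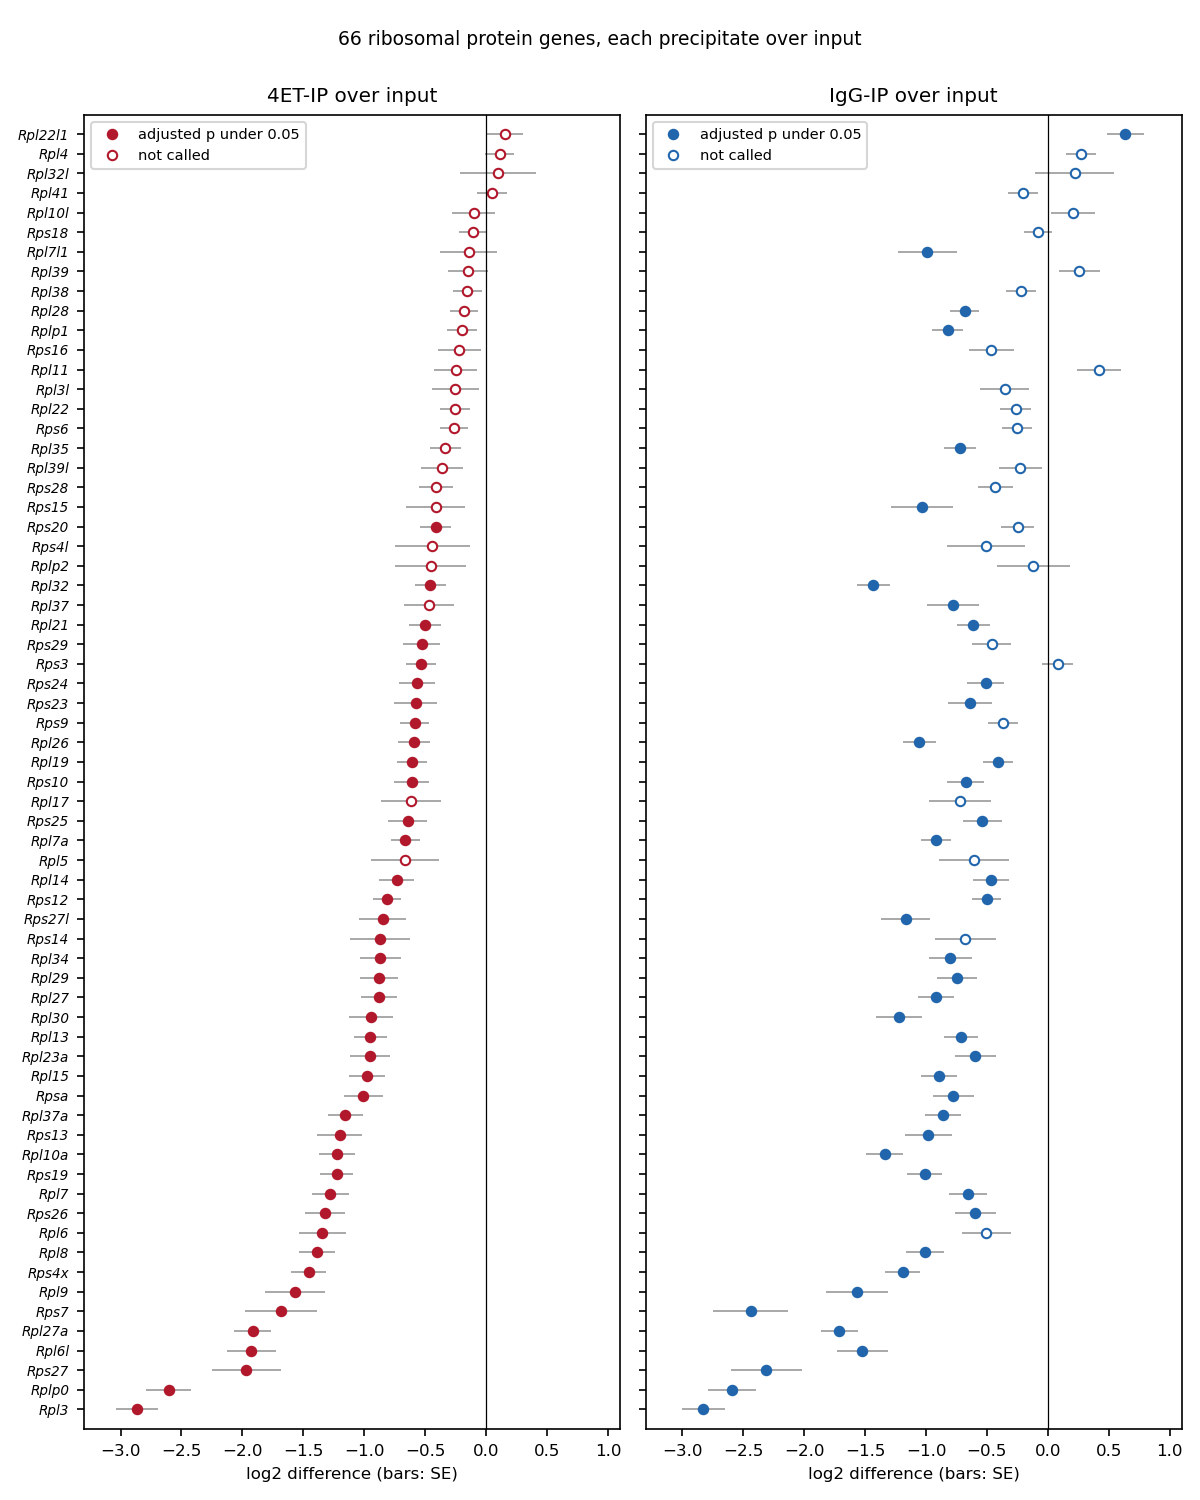
Log2 difference (x axis, bars are standard errors) of each of the 66 ribosomal protein genes (y axis) in 4ET-IP over input at the left and IgG-IP over input at the right, with filled points for an adjusted p under 0.05. Members lie between -2.86 (Rpl3) and 0.16 (Rpl22l1) in 4ET-IP over input, and both panels use the same input arrays.

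At the other end, some members had differences near 0 against input. Rpl4 had RMA log2 values of 11.48, 11.98 and 12.02 on the 4ET-IP arrays, 12.17, 12.11 and 12.28 on the IgG-IP arrays and 11.27, 11.90, 11.96 and 11.93 on the input arrays. Rpl4, a large subunit protein that lines the exit tunnel, had differences of 0.11 ± 0.12 in 4ET-IP and 0.27 ± 0.12 in IgG-IP against input, neither called. These values belong to the brighter of its 2 probe sets. The other had -0.74 in 4ET-IP and -0.48 in IgG-IP over input. The mean of both gave -0.31 (limma adjusted p = 0.0796) and -0.10 (adjusted p = 0.637). Rpl4 was called higher in IgG-IP over input with a trended robust variance prior (adjusted p = 0.0172). Quantile normalization with group alone called it higher in 4ET-IP over input (0.0496). Rpl41 had RMA log2 values of 12.17, 12.68 and 12.76 on the 4ET-IP arrays, 12.38, 12.47 and 12.55 on the IgG-IP arrays and 12.13, 12.76, 12.58 and 12.67 on the input arrays. Rpl41, a very short basic peptide of the ribosome, had 0.05 ± 0.12 in 4ET-IP and -0.21 ± 0.12 in IgG-IP. Rps18 had RMA log2 values of 11.90, 12.32 and 12.29 on the 4ET-IP arrays, 12.33, 12.30 and 12.34 on the IgG-IP arrays and 12.02, 12.37, 12.37 and 12.47 on the input arrays. Rps18, on the head of the small subunit, had -0.11 ± 0.11 and -0.08 ± 0.12 in the same order. The groups overlapped in Rpl41 and Rps18, whereas all IgG-IP arrays lay above all input arrays in the used probe set of Rpl4. Rps6 had RMA log2 values of 11.33, 11.58 and 11.58 on the 4ET-IP arrays, 11.65, 11.60 and 11.64 on the IgG-IP arrays and 11.44, 11.89, 11.92 and 11.92 on the input arrays. Rps6, the substrate of S6 kinase and a common readout of mTOR activity, had differences of -0.27 ± 0.12 in 4ET-IP (limma adjusted p = 0.153) and -0.25 ± 0.12 in IgG-IP (adjusted p = 0.192) against input. Both were called lower with a trended robust variance prior (adjusted p of 0.0146 and 0.0253). Quantile normalization with group alone turned the 4ET-IP difference of Rps6 to 0.05, not called. Rpl38, which in mice is known for a role in patterning of the axial skeleton, had -0.16 ± 0.12 and -0.22 ± 0.12. Rps25 had RMA log2 values of 8.36, 8.90 and 9.03 on the 4ET-IP arrays, 9.14, 8.78 and 8.97 on the IgG-IP arrays and 9.44, 9.31, 9.41 and 9.57 on the input arrays. Rps25, known from other systems for its part in internal initiation, was called lower in both precipitates, with -0.65 ± 0.16 in 4ET-IP (limma adjusted p = 0.0121) and -0.54 ± 0.16 in IgG-IP (adjusted p = 0.0412). Its call in 4ET-IP over input was lost without 4ET-IP 1 or input 1 (adjusted p up to 0.0861), and its call in IgG-IP over input was lost without any of 8 single arrays (up to 0.135) and with the replicate block (0.0537). The fits without 4ET-IP 1 and without input 1 are the same fit, since the scale term takes up the remaining array of the lower scale. They equal the fit of the upper-scale arrays alone, so they are not separate losses. Without the scale term neither was called (adjusted p of 0.102 and 0.288).

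The comparison of 4ET-IP with IgG-IP asks which mRNAs were recovered more with the specific antibody than without it. Among the ribosomal protein genes, Rpl32, Rplp1 and Rpl28, all of the large subunit, were higher in 4ET-IP. Rpl32 had RMA log2 values of 11.48, 12.01 and 11.67 on the 4ET-IP arrays, 10.89, 10.86 and 10.78 on the IgG-IP arrays and 12.03, 12.21, 12.34 and 12.23 on the input arrays. Rpl32 was 1.96-fold higher in 4ET-IP than in IgG-IP (0.97 ± 0.15 log2, limma adjusted p = 0.0019), with all 4ET-IP arrays above all IgG-IP arrays. Against input, Rpl32 differed by -0.46 ± 0.13 in 4ET-IP (limma adjusted p = 0.0258) and by -1.43 ± 0.13 in IgG-IP (adjusted p = 6.23e-05). Its call in 4ET-IP over input was lost without 4ET-IP 1, 4ET-IP 3, input 1 or input 3 (adjusted p up to 0.162) or without the scale term (0.231). Rplp1 had RMA log2 values of 12.21, 12.54 and 12.66 on the 4ET-IP arrays, 12.03, 11.99 and 11.88 on the IgG-IP arrays and 12.45, 12.64, 12.90 and 12.81 on the input arrays. Rplp1, an acidic protein of the P stalk, was 1.54-fold higher in 4ET-IP (0.62 ± 0.14, limma adjusted p = 0.0151), with no overlap between the precipitates. Rpl28 had RMA log2 values of 11.90, 12.33 and 12.25 on the 4ET-IP arrays, 11.77, 11.82 and 11.87 on the IgG-IP arrays and 11.96, 12.52, 12.54 and 12.51 on the input arrays. Rpl28, a large subunit protein, was 1.41-fold higher in 4ET-IP (0.50 ± 0.13, limma adjusted p = 0.0308), with no overlap although 4ET-IP 1 lies on the lower scale. Rplp1 and Rpl28 were both called lower in IgG-IP over input (-0.82 ± 0.13 and -0.68 ± 0.12) and not called in 4ET-IP over input (-0.20 ± 0.12 and -0.18 ± 0.12). Both calls against input were lost without the scale term (adjusted p of 0.0613 and 0.186), and with the mean of its 2 probe sets Rplp1 was called lower in 4ET-IP over input (-0.42, limma adjusted p = 0.0437).

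The 4 members lower in 4ET-IP than in IgG-IP were Rps3, Rps26, Rpl7 and Rpl6. Rps3 had RMA log2 values of 9.99, 10.63 and 10.39 on the 4ET-IP arrays, 11.09, 11.01 and 11.19 on the IgG-IP arrays and 10.66, 10.95, 11.03 and 11.02 on the input arrays. Rps3, a protein at the mRNA entry channel that also acts in DNA repair, was 1.53-fold lower in 4ET-IP than in IgG-IP (-0.62 ± 0.14, limma adjusted p = 0.0165). It was also lower than input in 4ET-IP (-0.54 ± 0.12, limma adjusted p = 0.00936), while IgG-IP differed from input by 0.08 ± 0.13 (adjusted p = 0.754). The call of Rps3 against input was lost without 4ET-IP 3 (adjusted p = 0.0651) and without the scale term (0.165). Rps26 had RMA log2 values of 10.79, 10.38 and 10.02 on the 4ET-IP arrays, 11.06, 10.94 and 11.16 on the IgG-IP arrays and 11.60, 11.70, 11.68 and 11.81 on the input arrays. Rps26, at the mRNA exit channel, had a difference of -0.73 ± 0.18 between the precipitates (limma adjusted p = 0.0272), and was lower than input in 4ET-IP (-1.32 ± 0.16, adjusted p = 0.000253) and in IgG-IP (-0.60 ± 0.17, adjusted p = 0.0313). The IgG-IP call was lost in 6 of the 10 fits that left out 1 array, namely without 4ET-IP 2, IgG-IP 2 or 3, or input 2, 3 or 4 (adjusted p up to 0.0957), and without the scale term (0.119). Rpl7 had RMA log2 values of 9.36, 9.44 and 9.39 on the 4ET-IP arrays, 10.02, 10.07 and 10.29 on the IgG-IP arrays and 10.27, 10.90, 10.66 and 10.98 on the input arrays. Rpl7, a large subunit protein, had -0.62 ± 0.17 between the precipitates (limma adjusted p = 0.0351). Rpl6 had RMA log2 values of 4.34, 4.29 and 4.44 on the 4ET-IP arrays, 5.34, 5.43 and 5.28 on the IgG-IP arrays and 5.10, 5.56, 6.05 and 6.24 on the input arrays. Rpl6, a large subunit protein whose used probe set was dim, was 1.79-fold lower in 4ET-IP than in IgG-IP (-0.84 ± 0.22, limma adjusted p = 0.0309). In all 4 genes every 4ET-IP array lay below every IgG-IP array. The next lowest, Rpl11, a regulator of MDM2, had -0.67 ± 0.20 and missed the threshold (limma adjusted p = 0.0536), which it passed with the replicate block (0.0254), among genes above the median level (0.0273) and without input 4 (0.0204). Among the highest, Rps7 and Rps15, both of the small subunit, had 0.75 ± 0.33 (limma adjusted p = 0.192) and 0.62 ± 0.27 (adjusted p = 0.193) and were not called. Rps7 was called without IgG-IP 2 (1.1, adjusted p = 0.0354), and Rps15 with arrays centred or quantile normalized in fits with group alone (0.0412 and 0.0441).

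**Figure D3:**
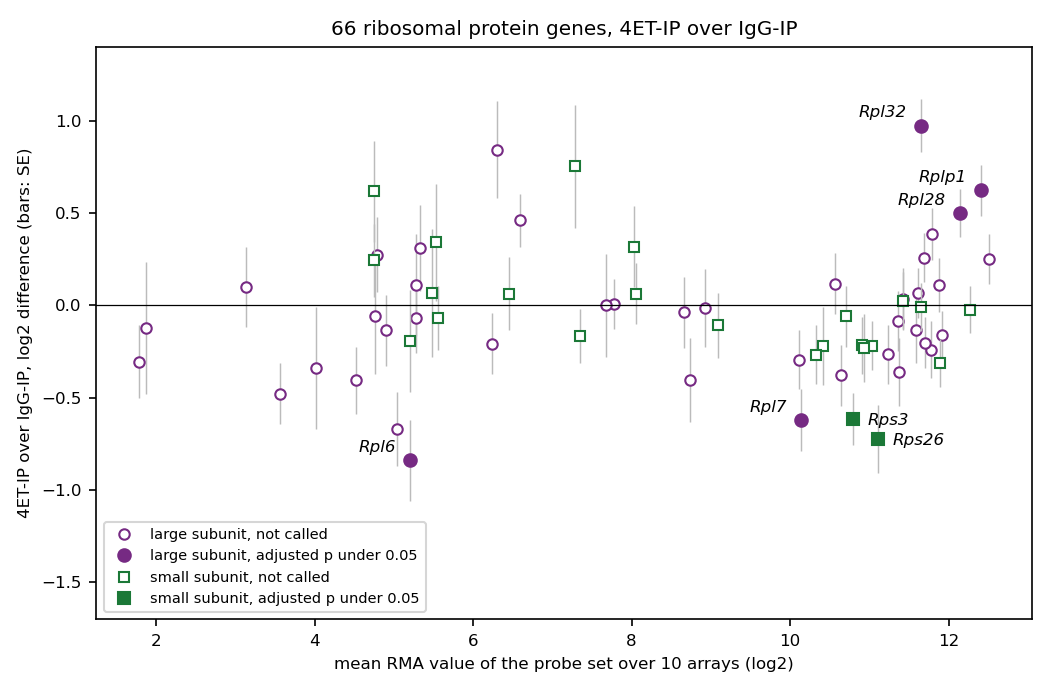
Log2 difference of 4ET-IP over IgG-IP (y axis, bars are standard errors) against the mean RMA value over 10 arrays (x axis, log2) for the 66 ribosomal protein genes, with circles for the large subunit, squares for the small subunit and filled points for an adjusted p under 0.05. The values run from -0.84 (Rpl6) to 0.97 (Rpl32), and 6 of the 7 called genes have a bright probe set.

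Only Rpl32 among these 7 kept its call in every fit that left out 1 array (limma adjusted p up to 0.0212). Without 4ET-IP 3, Rps3 lost its call (adjusted p = 0.107), and without 4ET-IP 2 or 4ET-IP 3, Rplp1 lost its call (up to 0.0962). Rpl28 lost its call without any 4ET-IP array, IgG-IP 2 or 3, or input 1, 2 or 3 (adjusted p up to 0.131). Rps26 lost it without 4ET-IP 2 or 3 or IgG-IP 2 or 4 (up to 0.186), Rpl7 without 4ET-IP 2 or 3, IgG-IP 3 or 4 or input 3 (up to 0.184), and Rpl6 without 4ET-IP 2 or 3 or any IgG-IP array (up to 0.178). With the mean of a gene's probe sets, Rps26 (-0.40, limma adjusted p = 0.359), Rpl7 (-0.40, 0.182) and Rplp1 (0.46, 0.0764) were not called, and with the replicate block Rpl7 was not called (-0.55, 0.0536). Without the scale term none of the 7 was called, and Rpl32 had an adjusted p of 0.0740. In the 8 arrays of the upper scale 6 of the 7 were called, and Rpl28 had an adjusted p of 0.0600. The fits without 4ET-IP 1 or without input 1 are this same fit. Arrays centred on their medians, or quantile normalized, each in a fit without the scale term, gave 7 higher members, with 0 and 2 lower. The all-gene counts of those fits for this comparison are not given here, so these counts are not read as a result about the members. Over all 66 members the median difference was -0.06, where that of all genes was 0.03. Without the scale term these medians were -0.15 and -0.19, so the direction of the members relative to all genes turned. Values without overlap were found in 6 members higher (7.02% of all genes) and 22 lower (14.5% of all genes). The counts without overlap are of deposited values, in which 4ET-IP 1 lies on the lower scale and no IgG-IP array does.

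The large and small subunit genes were set beside each other as descriptions, since genes are not replicates. Of the 42 large subunit genes, 23 were lower in 4ET-IP than in input and 27 were lower in IgG-IP than in input, with medians of -0.61 and -0.72. Of the 24 small subunit genes, 18 and 14 were lower, with medians of -0.60 and -0.57. The 1 higher member in IgG-IP over input and all 3 higher members in 4ET-IP over IgG-IP belonged to the large subunit. In the array values, deviations from the mean of inputs 2 to 4 had medians of -0.81, -0.70 and -0.64 in the large subunit and -0.97, -0.77 and -0.75 in the small subunit on the 4ET-IP arrays. On the IgG-IP arrays they were -0.73, -0.79 and -0.70 in the large subunit and -0.54, -0.68 and -0.58 in the small subunit. The large minus small difference of these medians was 0.17, 0.07 and 0.10 on the 4ET-IP arrays and -0.19, -0.11 and -0.13 on the IgG-IP arrays. It was -0.05 on input 1 and between -0.04 and 0.03 on inputs 2 to 4. Those 3 inputs are the reference, so their values lie near 0 by construction. The sign of these array medians thus differed between the precipitates, at a size below the spread between members, and no test was made of it. In the fit with the scale term, the large minus small median was -0.0012 in 4ET-IP over IgG-IP. It was -0.014 in 4ET-IP over input and -0.15 in IgG-IP over input. The positive sign of the 4ET-IP arrays was thus not seen in that fit. In the upper-scale arrays alone, the medians in 4ET-IP over input were -0.66 for the large and -0.74 for the small subunit, so the sign was positive there. In 4ET-IP over IgG-IP the medians of those arrays were -0.12 and -0.09, in the other order.

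**Figure D4:**
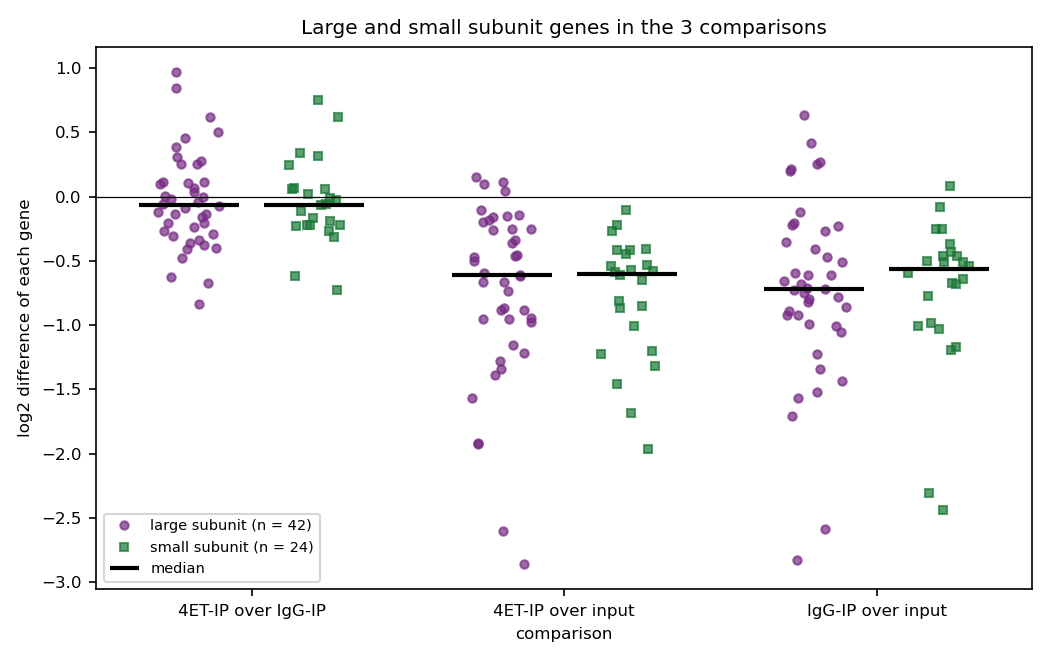
Log2 difference (y axis) of each large subunit gene (circles, n = 42) and each small subunit gene (squares, n = 24) in the 3 comparisons (x axis), with black bars for medians. The medians against input lie between -0.72 and -0.57 and those of 4ET-IP over IgG-IP at -0.07 and -0.06.

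**Figure D5:**
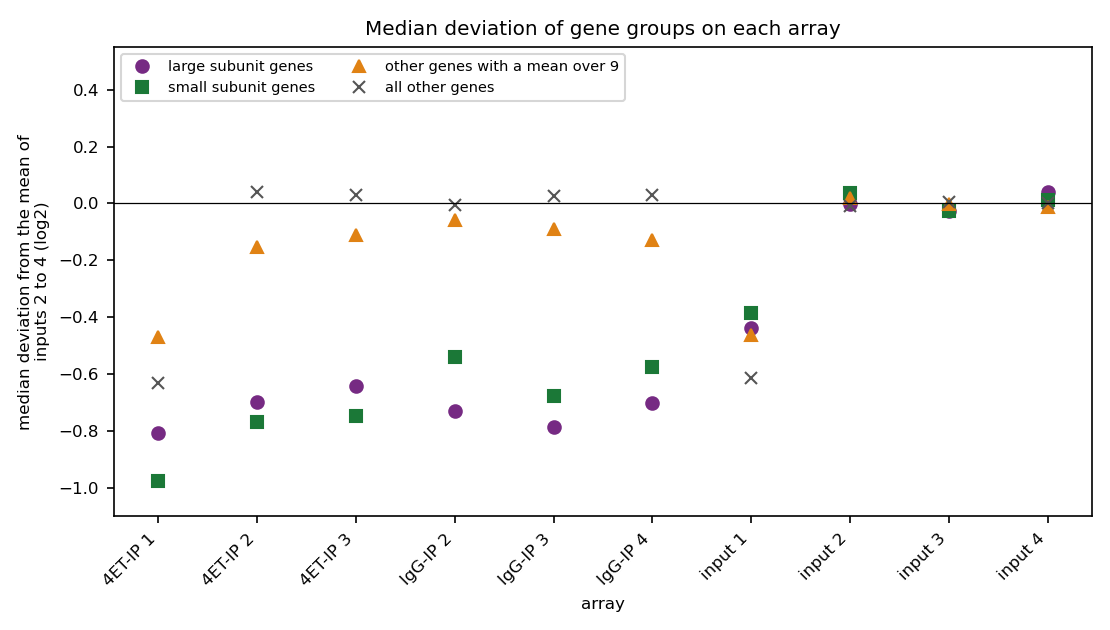
Median deviation from the mean of inputs 2 to 4 (y axis, log2) on each array (x axis; 4ET-IP left, then IgG-IP and input) of the large subunit genes, the small subunit genes, the other genes with a mean above 9 and all other genes. On the IgG-IP arrays the large subunit lies between -0.79 and -0.70 and all other genes between -0.01 and 0.03, and 4ET-IP 1 and input 1 are shifted down for every gene group.

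The P stalk genes differed among themselves in the probe sets used, and no test between them was made. The stalk is a flexible arm of the large subunit made of Rplp0 and pairs of the acidic proteins Rplp1 and Rplp2. Rplp0 was the next lowest member after Rpl3 against input in both precipitates, Rplp1 had -0.20 ± 0.12 in 4ET-IP and -0.82 ± 0.13 in IgG-IP, and Rplp2 was not called, with -0.46 ± 0.29 in 4ET-IP and -0.12 ± 0.30 in IgG-IP. The difference between the precipitates was -0.02 ± 0.21 for Rplp0, 0.62 ± 0.14 for Rplp1 and -0.34 ± 0.33 for Rplp2. A second probe set of Rplp0 had -1.06 in 4ET-IP and -0.54 in IgG-IP over input. That of Rplp1 had -0.65 and -0.94, so the order of Rplp0 and Rplp1 turned in IgG-IP over input. Rplp2 was read on a dim probe set, with a mean of 4.02 over the arrays.

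Several members are named as paralogues, genes related in sequence to a partner member, and only some of them are known to replace it in some tissues. Rpl22l1 had RMA log2 values of 3.23, 3.66 and 3.40 on the 4ET-IP arrays, 3.85, 4.08 and 4.16 on the IgG-IP arrays and 2.97, 3.22, 3.64 and 3.38 on the input arrays. Rpl22l1, the paralogue of Rpl22, was the 1 member higher in IgG-IP than in input (0.63 ± 0.15, limma adjusted p = 0.0132), a call lost without input 2 (adjusted p = 0.0536) and without the scale term (0.0819), and its difference in 4ET-IP over input was 0.16 ± 0.15. Rpl22 itself had -0.26 ± 0.12 in 4ET-IP and -0.26 ± 0.12 in IgG-IP against input, neither called. Rpl7l1 had RMA log2 values of 5.83, 6.89 and 6.54 on the 4ET-IP arrays, 6.29, 5.53 and 5.47 on the IgG-IP arrays and 6.39, 7.07, 6.62 and 6.37 on the input arrays. Rpl7l1, the paralogue of Rpl7, had the highest 4ET-IP over IgG-IP difference among members after Rpl32, 0.84 ± 0.26, which missed the threshold (limma adjusted p = 0.0639). It passed the threshold in 6 alternatives, among them the replicate block (0.71, adjusted p = 0.0226) and the fit without IgG-IP 2 (1.11, 0.0141). It was called lower in IgG-IP than in input (-0.99 ± 0.24, adjusted p = 0.0149), although not without IgG-IP 3, IgG-IP 4 or input 2 (up to 0.0579), nor without the scale term (0.145). Rps27l had RMA log2 values of 8.25, 7.57 and 7.57 on the 4ET-IP arrays, 7.48, 7.61 and 7.22 on the IgG-IP arrays and 8.36, 8.89, 8.63 and 8.66 on the input arrays. Rps27l, a paralogue of Rps27 known as a p53 target, was lower than input in 4ET-IP (-0.85 ± 0.19, limma adjusted p = 0.00874) and in IgG-IP (-1.17 ± 0.20, adjusted p = 0.00197). The 4ET-IP call was lost without 4ET-IP 2 or 3 (adjusted p up to 0.0638) and without the scale term (0.0554). Rpl3l, the striated muscle paralogue of Rpl3, had -0.26 ± 0.19 in 4ET-IP over input, and Rpl10l, known from testis, had -0.10 ± 0.18. Both were dim, with means of 3.13 (Rpl3l) and 1.78 (Rpl10l) over the arrays. In 4ET-IP over input, Rpl39 and its paralogue Rpl39l had -0.15 ± 0.16 and -0.36 ± 0.17, and the pseudogene Rps4l had -0.44 ± 0.31. None of these members, Rpl3l and Rpl10l included, was called. Paralogues and the many processed copies of ribosomal protein genes share sequence, and how far a probe set reads more than its named gene was not tested.

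The members, like genes at large, spread more widely than their errors. Between the 66 members, the log2 differences had a standard deviation of 0.36 in 4ET-IP over IgG-IP, 0.62 in 4ET-IP over input and 0.66 in IgG-IP over input, while the median standard error of a member was 0.17, 0.15 and 0.16 in the same order. All genes had standard deviations of 0.42, 0.44 and 0.44, with median standard errors of 0.18, 0.16 and 0.17. Members with a mean above 9 had standard deviations of 0.44 in 4ET-IP over input and 0.38 in IgG-IP over input. Members with a mean of 9 or less had 0.76 and 0.86, so the wider spread against input lay in the dimmer members. The spread included differences between probe sets. Of the 24 members with several probe sets, both signs occurred in 4 for 4ET-IP over IgG-IP, in 5 for 4ET-IP over input and in 7 for IgG-IP over input. The 5 probe sets of Rpl41 had differences of 0.05, 0.00, 0.01, -0.14 and -1.64 in 4ET-IP over input. The 2 of Rpl4 had 0.11 and -0.74. The 3 of Rpl3, given above against input, lay between -1.93 and -0.04 in 4ET-IP over IgG-IP, and their mean was called lower there (-0.78, limma adjusted p = 0.0146). A value for such a gene thus belongs to the probe set used.

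Level was examined because ribosomal protein probe sets are bright. The 33 members with a mean above 9 had 24 lower in 4ET-IP over input (72.7%) and 25 lower in IgG-IP over input (75.8%), with a median of -0.66 in each. The 1009 other genes with a mean above 9 had 311 lower (30.8%) and 279 lower (27.7%), with medians of -0.10 and -0.09. The 33 members with a mean of 9 or less had 17 lower in 4ET-IP over input and 16 lower in IgG-IP over input, with medians of -0.58 and -0.68. On the lower scale, the bright members and the other bright genes were both read on 4ET-IP 1 minus input 1, with a median of -0.46 for the members and -0.02 for the other genes. Whether level plays a part in the result was not tested beyond these values.

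Members with the tract at the annotated start, such as Rps27, Rpl28 and Rps18 above, ran from -1.97 (Rps27) to 0.10 (Rpl32l) in 4ET-IP over input. Rpl32l was among the dimmest genes, with a mean of 1.88 over the arrays (percentile 2.92) and a standard error of 0.32. The 11 members with the tract, Rpl32l included, had medians of -0.34 in 4ET-IP over input (4 lower) and -0.47 in IgG-IP over input (6 lower). The 40 members with a promoter entry and no tract at that base had medians of -0.63 (25 lower) and -0.62 (25 lower, 1 higher). Between the precipitates the medians were -0.01 and -0.09. These are descriptions of small sets of members.

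Other genes of the translation machinery give a frame for the members. Of 71 mitochondrial ribosomal protein genes, 50 were lower and 0 higher in 4ET-IP over input (median -0.80), 60 were lower and 0 higher in IgG-IP over input (median -1.04), and 15 were higher and 2 lower in 4ET-IP over IgG-IP (median 0.27). The cytosolic ribosomal proteins that the naming rule did not take, Fau and Rps3a1, had differences of -0.50 ± 0.13 (limma adjusted p = 0.0176) and -0.71 ± 0.14 (adjusted p = 0.00387) in 4ET-IP over input. Of 15 other mRNAs known as TOP mRNAs, 9 were lower in 4ET-IP over input (median -0.55), 7 lower in IgG-IP over input (median -0.36), and 1, the elongation factor gene Eef2, lower in 4ET-IP over IgG-IP (-0.61 ± 0.17, limma adjusted p = 0.0383). Their range in 4ET-IP over input ran from -1.61 ± 0.14 for Eif3f to 0.09 for Nap1l1. Of 15 regulators of TOP mRNAs, 3 were higher and 3 lower in 4ET-IP over input (median -0.13), from Rheb at -0.76 to Mlst8 at 1.09 ± 0.24, 1 was higher and 3 lower in IgG-IP over input (median 0.10), and 2 were higher and 3 lower in 4ET-IP over IgG-IP (median -0.07). Of 22 ribosome assembly and nucleolar factors, 5 were higher and 0 lower in 4ET-IP over IgG-IP (median 0.11), led by Nhp2 (1.1 ± 0.19, limma adjusted p = 0.00473). In 4ET-IP over input 3 of the 22 were higher and 5 lower (median -0.10), and in IgG-IP over input 0 were higher and 8 lower (median -0.28), with Nhp2 at -0.73 ± 0.17 and -1.83 ± 0.18. Counts of lists are read against the shares of all genes given above, and no test between lists was made.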

How the data were processed

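The series table holds log2 intensities of 41345 probe sets on 10 Affymetrix Mouse Gene 2.0 ST arrays, which the authors deposited after RMA (background correction, quantile normalization and probe summary) with Affymetrix Expression Console, as the tool names in the submitters' processing notes give them. Its version, and the genome build behind the array annotation, are not given in the sources used here. Gene symbols came from the platform annotation, in which 23521 probe sets had 1 symbol, 1814 had several and 16010 had no entry. Single-symbol probe sets were reduced to the highest mean per gene, which left 22180 genes. Precision is limited by the number of arrays.

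All genes were fitted by lmFit and eBayes of limma 3.58.1 (R 4.3.3) on a term for group and a term for the scale. An array was put on the lower scale where its median over probe sets lay more than 0.5 below the median of the array medians. Calls used a Benjamini-Hochberg adjusted p under 0.05 over all 22180 genes. Scripts were tested on simulated data. Python 3.11.15 with matplotlib 3.10.9 made the figures, and sequences came from RefSeq (GRCm38.p6).

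The members, the gene lists, the tests and the alternatives were chosen with earlier results of these data known. Genes were named from the 6 highest and 6 lowest members of each comparison, the paralogue pairs, the P stalk, Rpsa, Rps6, Rpl38, Rps25 and Rpl10a, and the ends of each other list. Named genes of that rule that could not be measured were Rpl36al, Rpl10, Rpl36a, Rpl13a and Rps27a. The labels do not say whether equal replicate numbers mark shared lysates. After the scale term, deviations of arrays with the same number correlated across genes at -0.037 and -0.098 (4ET-IP and input, numbers 2 and 3), 0.090, 0.091 and 0.27 (IgG-IP and input) and 0.091 and 0.025 (4ET-IP and IgG-IP). Among upper-scale arrays with different numbers, IgG-IP and input reached 0.077 at most, below each of their pairs with the same number. A cut-off of over 0.1 in every pair was not met, so the numbers were not used as pairs in the main fit. Whether IgG-IP and input arrays of the same number are pairs was thus not settled, and the replicate block was run as an alternative. The alternatives left out each array in turn, the scale term or both arrays of the lower scale, changed the scaling, the choice of probe set, the genes tested or the variance prior, added the replicate block, or left out the pseudogenes.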

Additional observations from a re-analysis of the deposited data

Results flagged for a closer look

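Of the 36 members named by the rule, 4 had an input 1 value set apart from the other inputs, with a gap to the nearest of them above the 95% critical value of Dixon's test. Rpl28 had 11.96 on input 1, and 12.51 to 12.54 on inputs 2 to 4. Rpsa had 10.85 on input 1, and 11.58 to 11.70 on the others. Rps6 had 11.44 on input 1, and 11.89 to 11.92 on the others. Rpl4 had 11.27 on input 1, and 11.90 to 11.96 on the others. In each, the low array was input 1, whose median over all probe sets was also low (3.54). On input 1 the median deviation from the mean of inputs 2 to 4 was -0.47 in members with a mean above 9. It was -0.46 in the other genes of that level, and the part of the scale in the flagged values was not tested. Chance flags about 1 in 20 groups, a rate that supposes arrays on 1 scale, which these inputs are not.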

How the results depend on the processing

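A total of 19 alternatives were run, 1 of them, which left out Rpl6l and Rps4l, chosen after seeing the data. Of 1575 values of single named genes, 1414 kept their direction and side of the threshold, 76 were no longer called, 19 were newly called, and 66 were uncalled differences that changed sign. The alternatives without 4ET-IP 1, without input 1 and without both are the same fit, whose values are thus repeated in these counts. With group alone, all-gene calls were 299 in 4ET-IP over IgG-IP, 1361 in 4ET-IP over input and 1206 in IgG-IP over input (2326, 4274 and 3688 with the scale term), and ribosomal protein calls were 0 higher and 0 lower, 25 lower, and 0 higher and 20 lower. Centring in a fit with group alone gave 7 higher and 0 lower members in 4ET-IP over IgG-IP, 2474 genes and 23 lower members in 4ET-IP over input, and 0 higher in IgG-IP over input. Quantile normalization in a fit with group alone gave 7 higher and 2 lower, 1 higher and 27 lower, and 0 higher in the same comparisons. Genes above the median level gave 5 higher in 4ET-IP over IgG-IP and 0 higher in IgG-IP over input, where the mean of a gene's probe sets and the trended robust prior each gave 2 higher. Where no all-gene count of the same fit and comparison stands beside a member count, that count is not read as a result about the members. The causes were not tested.

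Leaving out 1 array gave 930 to 2268 genes called in 4ET-IP over IgG-IP, with 1 to 4 members higher and 0 to 5 lower, 2703 to 4679 genes in 4ET-IP over input, with 31 to 42 members lower and 0 higher, and 2612 to 3471 genes in IgG-IP over input, with 31 to 42 lower and 0 to 1 higher. The member median minus that of the other genes ranged from -0.13 to -0.06, from -0.73 to -0.64 and from -0.73 to -0.63, and the large minus small median from -0.07 to 0.04, from -0.07 to 0.09 and from -0.18 to -0.06. With the replicate number as a block, which also holds the scale since only the arrays of the lower scale are numbered 1, 4 members were higher and 4 lower in 4ET-IP over IgG-IP, 42 lower and 0 higher in 4ET-IP over input, and 39 lower and 1 higher in IgG-IP over input. The all-gene counts of the block fit are not given here, so these counts are not read as a result about the members. The table holds no background or detection values, so dim members such as Rpl6 and Rpl22l1 have no detection limit here.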

Other observations

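Some ribosomal protein genes hold a small nucleolar RNA gene within their annotated span, and such RNAs are processed from introns and guide modification of ribosomal RNA. Of the 66 members, 15 held such a gene, by the reference gene table. Their median log2 difference was -0.22 in 4ET-IP over IgG-IP, with 12 of 15 negative, and the 51 other members had a median of -0.02. Against input, the medians of the 15 were -0.67 in 4ET-IP and -0.71 in IgG-IP, and those of the 51 were -0.59 and -0.66. Within the 15, the difference in 4ET-IP over IgG-IP ran from -0.62 for Rps3 to 0.97 for Rpl32, so they did not share a direction. Among the 13 small subunit genes with a mean above 9, 12 had a negative difference in 4ET-IP over IgG-IP (median -0.22), and the 20 large subunit genes of that level had a median of -0.02. Of the 1009 other genes with a mean above 9, 465 were negative. Of all 24 small subunit genes, bright or dim, 15 were negative and 9 positive (median -0.06). Genes are not replicates, and neither contrast was tested.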
